A study of Mus musculus with 10 samples.

Results

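The mitochondrial protein import machinery comprises the translocases, chaperones and peptidases that bring nuclear-encoded proteins into the organelle. It was represented here by 35 listed genes, chosen by name for what their products are known to do. All 35 were found among the 24972 genes of the deposited tables, and all 35 were among the 14378 genes with enough reads to be tested. RNA came from cortical tissue of male mice (C57BL/6, aged 2.5 months), which were perfused with cold PBS before dissection. Of the animals, 5 carried the genotype Atad3 nKO and 5 were control littermates. No label explains the abbreviation nKO or gives the promoter or cell type of any Cre driver, the deleted exons or the alleles that the control littermates carried. Total RNA was made into stranded libraries, and each library held between 14812639 and 24161361 estimated read counts on genes.

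Proteins bound for mitochondria are made in the cytosol and enter through the TOM complex of the outer membrane, with Tomm20, Tomm22 and Tomm70a as receptors and Tomm40 as the channel. From there, carrier proteins are escorted by the small Tims of the intermembrane space to TIM22, and proteins with a presequence pass through TIM23, are pulled in by the Hsp70 motor and are trimmed by peptidases of the matrix. ATAD3A, the ATPase encoded by the targeted gene, is anchored in the inner membrane and is known from earlier work for roles in cristae structure and mitochondrial DNA organization.

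Atad3a, on mouse chromosome 4, checked the genotype labels first. Its level was 8.95 to 14.4 CPM (counts scaled to the size of the library) in nKO cortices, against 22.2 to 26.6 CPM in control cortices, and the groups did not overlap. The means were 11.5 ± 1.97 CPM in nKO and 23.7 ± 1.87 CPM in controls (SD, n = 5 each), a log2 fold change of -1.04 (SE 0.12, adjusted p = 0.00634 by edgeR's quasi-likelihood test with Benjamini-Hochberg adjustment). Because cortex holds many cell types, fewer cells of a type and less RNA per cell cannot be told apart in these values. Over all genes, 2 were called at 5%, Atad3a and Fam155a, both with less RNA in nKO. The libraries nKO 4 and control 1 stood at opposite ends of a spread that follows base composition. Markers of cortical cells were well expressed, with a summed level of 6 excitatory neuron markers of 1498 to 1671 TPM in nKO and 1228 to 1531 TPM in controls (TPM is a level per unit of transcript length, scaled to the same total in every library). Markers of inhibitory neurons, oligodendrocytes, microglia and endothelial cells gave overlapping sums, as did the 6 astrocyte markers at 1326 to 1394 TPM in nKO and 1257 to 1490 TPM in controls, although all 6 had a log2 fold change below 0. None of these markers was called. The 3 choroid plexus markers summed to between 2.23 and 3.03 TPM in nKO and between 1.40 and 4.85 TPM in controls.

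None of the 35 import genes was called, beside 0.0139% of all tested genes. None had an unadjusted p under 0.05 either, beside 5.65% of all tested genes, and the smallest was 0.111 for Pam16, with an adjusted p of 0.826. For none did the nKO and control libraries separate without overlap, beside 1.38% of all tested genes in CPM and 2.56% in TPM. Tested with DESeq2 or limma-voom, 0 import genes were called and 0 had an unadjusted p under 0.05. Over all tested genes, 5 were called with DESeq2 and 2 with limma-voom. The share with an unadjusted p under 0.05 was 5.83% with DESeq2 and 6.22% with limma-voom.

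The intervals show how much change these data could hide. The 95% interval of the log2 fold change lay within a 1.5-fold change in either direction for 31 of the 35 import genes, and for 75.7% of all tested genes. It lay within a 1.25-fold change for 23 import genes, and for 38.5% of all tested genes. The narrowest was that of Timm17a, from -0.14 to 0.15. The 4 genes whose interval reached past 1.5-fold were Timm13, Tomm6, Tomm40 and Timm50, which also had the 4 highest coefficients of variation in CPM among controls, from 28.4% to 52.7%. The estimate was within 1 SE of 0 for 26 of 35 import genes and within 2 SE for all 35. Neither share was computed over all tested genes, so neither count sets the import genes apart.

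**Figure D1:**
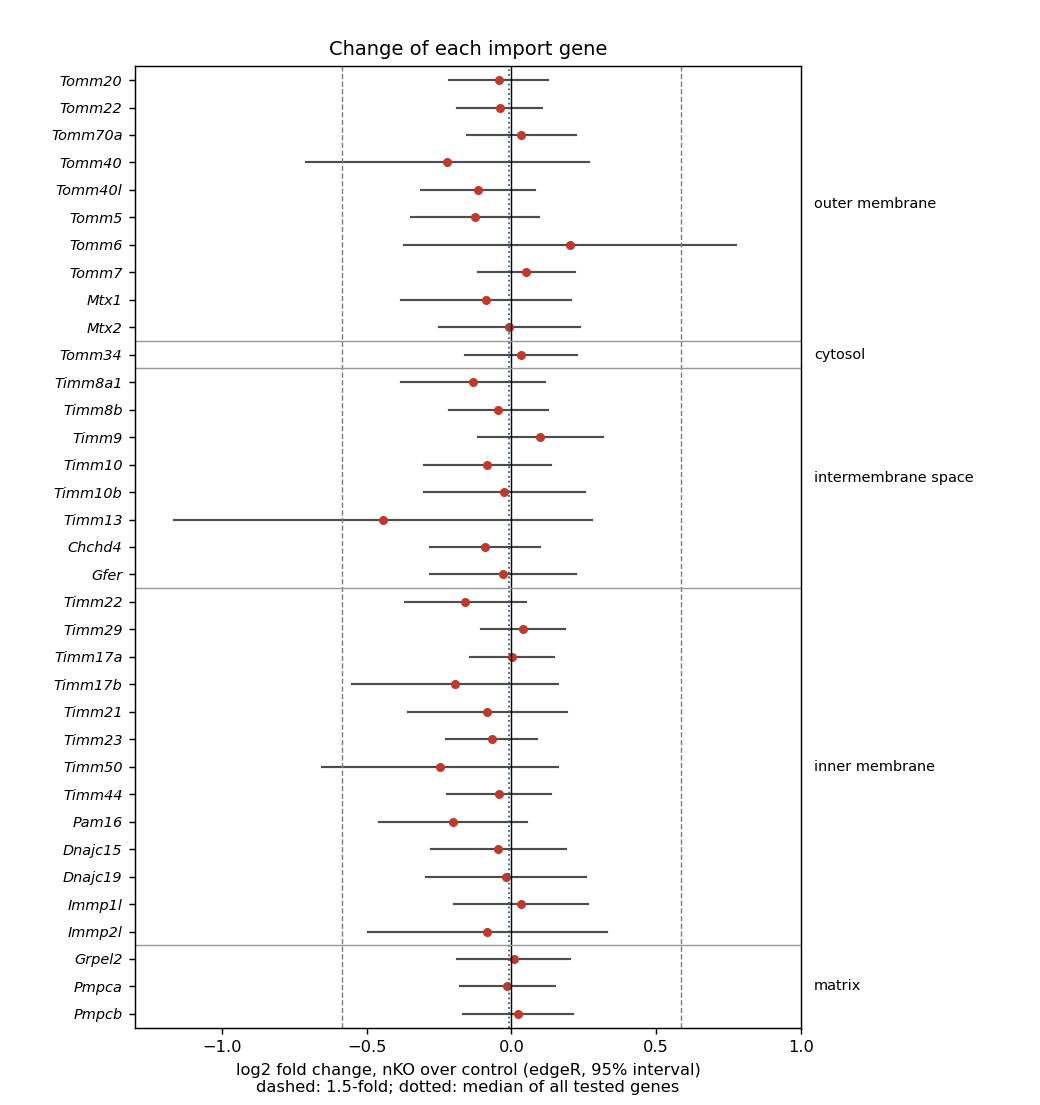
Log2 fold change of each of the 35 import genes, nKO over control, from edgeR (points) with its 95% interval (lines), ordered by compartment; dashed lines mark a 1.5-fold change and the dotted line the median of all tested genes. Every interval includes 0, and those of Timm13, Tomm6, Tomm40 and Timm50 reach past 1.5-fold.

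Log2 fold changes were below 0 for 25 import genes and above 0 for 10, with a median of -0.04; over all tested genes 52.2% were below 0 and the median was -0.01. Fitted with limma on log2 TPM, a comparison added after the values had been seen, 18 of 35 were below 0 with a median of -0.00022, beside 35% of all tested genes below 0 and a median of 0.05. Fitted by edgeR on counts with effective length offsets, 29 of 35 were below 0 with a median of -0.06, beside 52% of all tested genes below 0 and a median of -0.01. By mean TPM 19 were lower and 16 higher in nKO. Import transcripts are short, with a median length of 1226 bases against 2994 for all tested genes, and 27 of 35 fell in the shortest quartile of tested genes. Over all genes of that quartile the median log2 fold change was -0.07, and over its 27 import genes -0.05. With the trend on transcript length removed, the median of the import genes was 0.01.

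The import transcripts covered a wide range of levels. Timm8b, a small Tim, stood highest at 411 ± 15.8 TPM in nKO and 415 ± 54.3 TPM in controls, and Immp2l, a subunit of the inner membrane peptidase, lowest at 9.37 ± 1.48 TPM in nKO and 9.55 ± 2.66 TPM in controls (SD, n = 5 each). The 2 were 43.7-fold apart over all libraries. Timm8b was at 423, 395, 393, 418 and 425 TPM in nKO 1 to 5, and at 341, 418, 494, 416 and 406 TPM in controls 1 to 5. All 5 nKO values lay between those of controls 1 and 3. Immp2l was at 9.30, 11.7, 9.61, 8.01 and 8.21 TPM in nKO 1 to 5, and at 7.72, 7.996, 13.6, 10.9 and 7.51 TPM in controls 1 to 5. Both groups of Immp2l values overlapped, and control 3 was its highest library. Of the 35 genes, 29 lay above the median tested gene in TPM.

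The order began with Timm8b, Tomm20, Tomm70a, Timm23, Tomm22, Timm17a, Tomm5, Dnajc15, Tomm7 and Pam16. It ended with Timm50, Grpel2, Timm21, Gfer, Timm22, Timm17b and Immp2l. Neighbours in this order mostly could not be separated: over all 10 libraries the ranges overlapped in 31 of 34 neighbouring pairs. The 3 steps without overlap were Timm8b over Tomm20, Tomm70a over Timm23, and Timm50 over Grpel2. For 34 of the 35 genes the mean TPM of nKO lay inside the range of the 5 controls; the share over all tested genes was not computed. The exception was Timm9, at 65.8 ± 6.75 TPM in nKO, just above the highest control at 65.4 TPM.

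**Figure D2:**
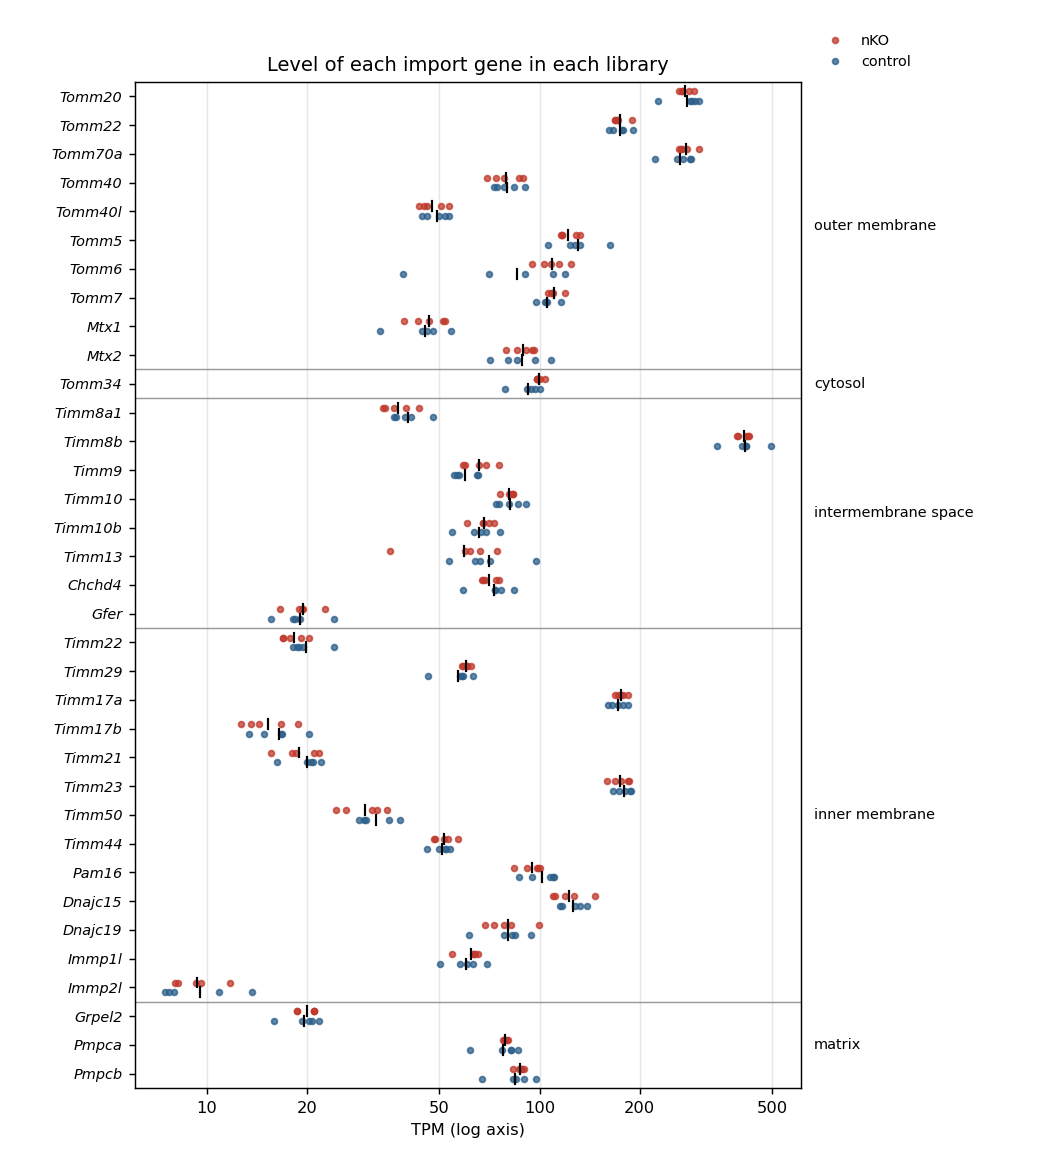
TPM (log axis) of the 35 import genes in each of the 10 libraries, by compartment; nKO libraries are the upper row of points and controls the lower row of each gene, and black ticks mark group means. Groups overlap for every gene, from Timm8b at about 411 TPM in nKO and 415 TPM in controls down to Immp2l at about 9.37 TPM in nKO and 9.55 TPM in controls; Tomm6 and Timm13 show single libraries far from the rest.

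In the outer membrane, 7 of the 10 listed genes had a log2 fold change below 0 and the median was -0.04. The receptors were the 3 most abundant transcripts of this group. Tomm20, which recognizes presequences, was at 268, 262, 268, 290 and 281 TPM in nKO 1 to 5, and at 227, 294, 302, 286 and 282 TPM in controls 1 to 5. Control 1 was the lowest of all 10 libraries and the other controls lay within or just above the nKO values; the log2 fold change was -0.04 (SE 0.08). Tomm70a, the receptor for carrier proteins, stood at 274 ± 16.3 TPM in nKO and 264 ± 25.5 TPM in controls (SD, n = 5 each; log2 fold change 0.03, SE 0.09). The central receptor Tomm22 stood at 174 ± 9.02 TPM in nKO and 175 ± 11.5 TPM in controls (SD, n = 5 each; log2 fold change -0.04, SE 0.07).

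The small subunits of TOM, which steady the complex, were Tomm5, Tomm6 and Tomm7. The log2 fold change was -0.13 (SE 0.10) for Tomm5 and 0.05 (SE 0.08) for Tomm7. It was -0.04 (SE 0.09) for Tomm5 without control 3 and 0.01 (SE 0.08) for Tomm7 without nKO 5. These were the values nearest 0 with 1 library left out. The full range of such fits was -0.17 to -0.04 for Tomm5 and 0.01 to 0.09 for Tomm7. Tomm6 was at 108, 124, 115, 103 and 95.2 TPM in nKO 1 to 5, and at 70.7, 90.5, 38.8, 119 and 110 TPM in controls 1 to 5. The 5 nKO libraries lay close together, and control 3 stood below all 9 others. The log2 fold change of 0.20 (SE 0.26) became -0.01 without control 3. In the GENCODE annotation, exons of Tomm6 share 859 bases with a second gene on the same strand, Gm21981. No level of Gm21981 is given among the deposited values, so the level of Tomm6 itself is uncertain.

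The channel gene Tomm40 and its close relative Tomm40l, which is known to form channels of the same kind, were both measured. Tomm40 was at 24.4, 27.5, 28.4, 16.0 and 21.3 CPM in nKO 1 to 5, and at 45.4, 22.3, 20.9, 22.4 and 26.5 CPM in controls 1 to 5. The 2 groups overlapped, with nKO 4 the lowest and control 1 the highest of the 10 libraries. On the TPM scale the values were 78.0, 86.6, 88.9, 69.7 and 74.1 in nKO 1 to 5, and 90.5, 78.1, 74.2, 72.9 and 83.6 in controls 1 to 5. Its log2 fold change was -0.22 (SE 0.22) in CPM and -0.01 (SE 0.09) with limma on log2 TPM.

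Tomm40l had the smallest p of the TOM genes. It was at 51.7, 47.6, 46.3, 40.3 and 53.9 CPM in nKO 1 to 5, and at 55.4, 44.7, 53.7, 54.2 and 51.5 CPM in controls 1 to 5. The groups overlapped, with nKO 4 the lowest and control 1 the highest. The log2 fold change was -0.11 (SE 0.09, adjusted p = 0.860 by edgeR), and -0.04 (SE 0.08) with these 2 libraries left out. Leaving out the lowest nKO and the highest control library is bound to raise a fold change. Mtx1 and Mtx2, the metaxins of the machinery that sorts proteins into the outer membrane, had log2 fold changes of -0.09 (SE 0.14) and -0.01 (SE 0.11). Without nKO 4 and control 1 the values were 0.04 (SE 0.11) for Mtx1 and -0.12 (SE 0.11) for Mtx2. In CPM, nKO 4 was the lowest nKO library for Mtx1 and the highest for Mtx2. Control 1 lay above the control mean for Mtx1 and was the lowest control for Mtx2. The rise of Mtx1 and the fall of Mtx2 were therefore fixed by that choice. Mtx1 was at 43.2, 52.1, 46.6, 39.1 and 51.3 TPM in nKO 1 to 5, and at 33.2, 44.3, 47.9, 45.9 and 54.1 TPM in controls 1 to 5, with control 1 the lowest. Its mean was higher in nKO in TPM, at 46.4 against 45.1 in controls. In CPM, the scale of its fold change, the mean was lower in nKO, at 13.6 against 14.4. There nKO 4 was the lowest library at 9.70 CPM and control 1 stood at 15.6 CPM. Tomm34, a co-chaperone that acts in the cytosol, was at 98.1, 99.98, 98.2, 104 and 98.4 TPM in nKO 1 to 5, and at 93.98, 100.5, 78.8, 96.7 and 91.7 TPM in controls 1 to 5. Control 2 lay within the nKO values and the other 4 controls below all of them; the log2 fold change in counts was 0.03 (SE 0.09).

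In the intermembrane space, 7 of 8 listed genes had a log2 fold change below 0 and the median was -0.06. The small Tims are chaperones that carry hydrophobic precursors across the watery space between the membranes. Timm13, the partner of Timm8a1 and the small Tim with the smallest p, was at 16.4, 17.5, 20.5, 7.39 and 16.8 CPM in nKO 1 to 5, and at 41.1, 13.3, 15.9, 17.3 and 19.2 CPM in controls 1 to 5. All libraries but nKO 4 and control 1 lay between 13.3 and 20.5 CPM. The log2 fold change was -0.44 (SE 0.33, adjusted p = 0.860 by edgeR), the farthest from 0 of the 35, and it became 0.10 (SE 0.13) with nKO 4 and control 1 left out. Leaving out the lowest nKO and the highest control was bound to raise it. In TPM, nKO 4 stood at 35.5 and control 1 at 97.8, a smaller gap than in CPM and still the 2 ends of the 10 libraries.

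Timm9 and Timm10, which together form the main carrier chaperone, had log2 fold changes of 0.10 (SE 0.10) and -0.08 (SE 0.10). Timm10b, a partner in the TIM22 complex, had -0.02 (SE 0.13). Timm8a1 had -0.13 (SE 0.12), and -0.23 (SE 0.11) without nKO 4 and control 1. In CPM, nKO 4 was the highest nKO library of Timm8a1 and control 1 lay below the control mean, so this fall was fixed by the choice. For Timm8b the value was -0.05 (SE 0.08). Chchd4, the oxidoreductase that traps cysteine-rich proteins in this space, and Gfer, the oxidase that recharges it, make up the disulfide relay. Chchd4 was at 67.7, 74.2, 68.4, 67.3 and 75.3 TPM in nKO 1 to 5, and at 58.8, 73.6, 83.6, 76.4 and 73.5 TPM in controls 1 to 5, with controls 1 and 3 the lowest and the highest. Its log2 fold change was -0.09 (SE 0.09) and that of Gfer was -0.03 (SE 0.12), or -0.12 (SE 0.12) without nKO 4 and control 1. In CPM these were the highest nKO library and the lowest control of Gfer, so leaving them out was bound to lower it.

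In the inner membrane, the compartment in which ATAD3A itself is anchored, 10 of 13 listed genes had a log2 fold change below 0 and the median was -0.07. Timm22, the channel for carrier proteins and the gene of TIM22 with the smaller p, was at 18.0, 20.6, 21.4, 19.1 and 18.4 CPM in nKO 1 to 5, and at 20.9, 20.5, 26.1, 20.6 and 20.7 CPM in controls 1 to 5. Control 3 was the highest of all; the other 4 controls fell between 20.5 and 20.9 CPM, and 2 nKO libraries lay within or above that range. The log2 fold change was -0.16 (SE 0.10, adjusted p = 0.832 by edgeR), and -0.08 (SE 0.08) without control 3. With any 1 library left out it ranged from -0.20 to -0.08. Timm29, a subunit of the same complex, stood at 60.2 ± 1.58 TPM in nKO and 56.8 ± 6.37 TPM in controls (SD, n = 5 each; log2 fold change 0.04, SE 0.07).

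Of the TIM23 complex, the channel subunits Timm23 and Timm17a were abundant. Timm23 stood at 175 ± 11.4 TPM in nKO and 179 ± 9.07 TPM in controls, and Timm17a at 176 ± 5.95 TPM in nKO and 172 ± 9.73 TPM in controls (SD, n = 5 each). Timm50, the receptor of TIM23 that faces the intermembrane space, had the smallest p of this complex, 0.214. It was at 7.99, 9.70, 9.91, 6.22 and 10.1 CPM in nKO 1 to 5, and at 15.5, 8.28, 8.61, 9.07 and 10.8 CPM in controls 1 to 5. As for Tomm40 and Timm13, nKO 4 was the lowest and control 1 the highest. The log2 fold change was -0.25 (SE 0.19, adjusted p = 0.860 by edgeR), and 0.03 (SE 0.13) with these 2 libraries left out, a step bound to raise it. Timm21, which links TIM23 to TOM and the respiratory chain, had -0.08 (SE 0.13), or -0.16 (SE 0.13) without them. In CPM, control 1 was the lowest control of Timm21 and nKO 4 lay above the nKO mean, so a fall was bound to follow.

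The motor that pulls proteins into the matrix includes Timm44, the anchor of Hsp70 at the channel, and the J-domain proteins Dnajc19 and Dnajc15 with their regulator Pam16. Pam16 was at 9.70, 10.9, 10.4, 7.88 and 10.1 CPM in nKO 1 to 5, and at 12.7, 11.3, 9.47, 11.4 and 11.6 CPM in controls 1 to 5. Control 3 lay below 4 of the 5 nKO libraries and the other 4 controls above all 5. The log2 fold change was -0.20 (SE 0.12, adjusted p = 0.826 by edgeR). With control 3, its lowest control, left out it was -0.26, a step bound to move it farther below 0. The unadjusted edgeR p of Pam16 then fell under 0.05, as for 4.84% of all tested genes in that fit. The smallest adjusted p of any import gene was then 0.847. With nKO 4 and control 1 left out, its lowest and highest libraries, the log2 fold change of Pam16 was -0.09 (SE 0.11), a rise fixed by that choice. Timm44, Dnajc15 and Dnajc19 had log2 fold changes of -0.04 (SE 0.08), -0.04 (SE 0.11) and -0.02 (SE 0.13). With nKO 4 and control 1 left out they were 0.01 (SE 0.08) for Timm44, -0.16 (SE 0.10) for Dnajc15 and -0.20 (SE 0.10) for Dnajc19, none of them called. For Dnajc15 and Dnajc19, nKO 4 was the highest of the 10 libraries in CPM and control 1 lay below the control mean. Their falls were fixed by that choice. For Timm44, nKO 4 was the lowest library and control 1 lay above the control mean, so a rise was fixed.

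In the matrix, Grpel2, a nucleotide exchange factor of mitochondrial Hsp70, had a log2 fold change of 0.01 (SE 0.09). Pmpca and Pmpcb, the subunits of the peptidase that removes presequences, had -0.01 (SE 0.08) and 0.02 (SE 0.09). Pmpca was even in nKO, at 77.7 to 80.2 TPM with a median of 79.0, against 61.8 to 86.4 TPM with a median of 81.9 in controls. The inner membrane peptidase subunits Immp1l and Immp2l had 0.03 (SE 0.11) and -0.08 (SE 0.19); the p of 0.670 for Immp2l was the smallest of the peptidases.

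Outer and inner membrane genes were set against each other within each library, as the mean log2 TPM of the 10 outer membrane genes minus that of the 13 inner membrane genes. The difference was 1.23, 1.23, 1.13, 1.195 and 1.24 in nKO 1 to 5, and 1.10, 1.16, 0.997, 1.16 and 1.199 in controls 1 to 5. The groups overlapped, with nKO 3 below 3 of the controls and the other 4 nKO libraries above 4 or all 5 of them. The means were 1.205 ± 0.04 in nKO and 1.12 ± 0.08 in controls (SD, n = 5 each), 0.08 apart, and between 0.05 and 0.10 apart with any 1 library left out. Outer membrane transcripts made up 59.2 ± 0.422% of the summed outer and inner TPM in nKO and 58.4 ± 0.523% in controls (SD, n = 5 each). The lowest value of the difference was that of control 3, whose Tomm6 level is the lowest of the 10. This comparison is a description, with no test.

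Summed over all 35 genes, import transcripts held 3268 to 3409 TPM in nKO and 2955 to 3552 TPM in controls, with controls 1 and 3 at the 2 ends of the 10 libraries. The means were 3338 ± 61.3 TPM in nKO and 3325 ± 223 TPM in controls (SD, n = 5 each). Control 1 was the lowest of the 10 libraries in TPM for 18 import genes (51.4%), and this was so for 37.6% of all tested genes. Control 3 was the highest for 16 (45.7%), and for 21.9% of all tested genes. In CPM, control 1 was the lowest for 10 import genes (28.6%) and the highest for 9 (25.7%), beside 19.4% and 25.6% of all tested genes. Control 3 was the highest in CPM for 14 (40%), beside 17.9% of all tested genes. The SD was smaller in nKO than in controls for 27 of 35 import genes in TPM and for 22 in CPM. The same share over all tested genes was not computed, so these counts do not set import genes apart. The median coefficient of variation in CPM was 9.61% in nKO and 11.1% in controls over the import genes, and 11.8% in nKO and 14.2% in controls over all tested genes.

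**Figure D3:**
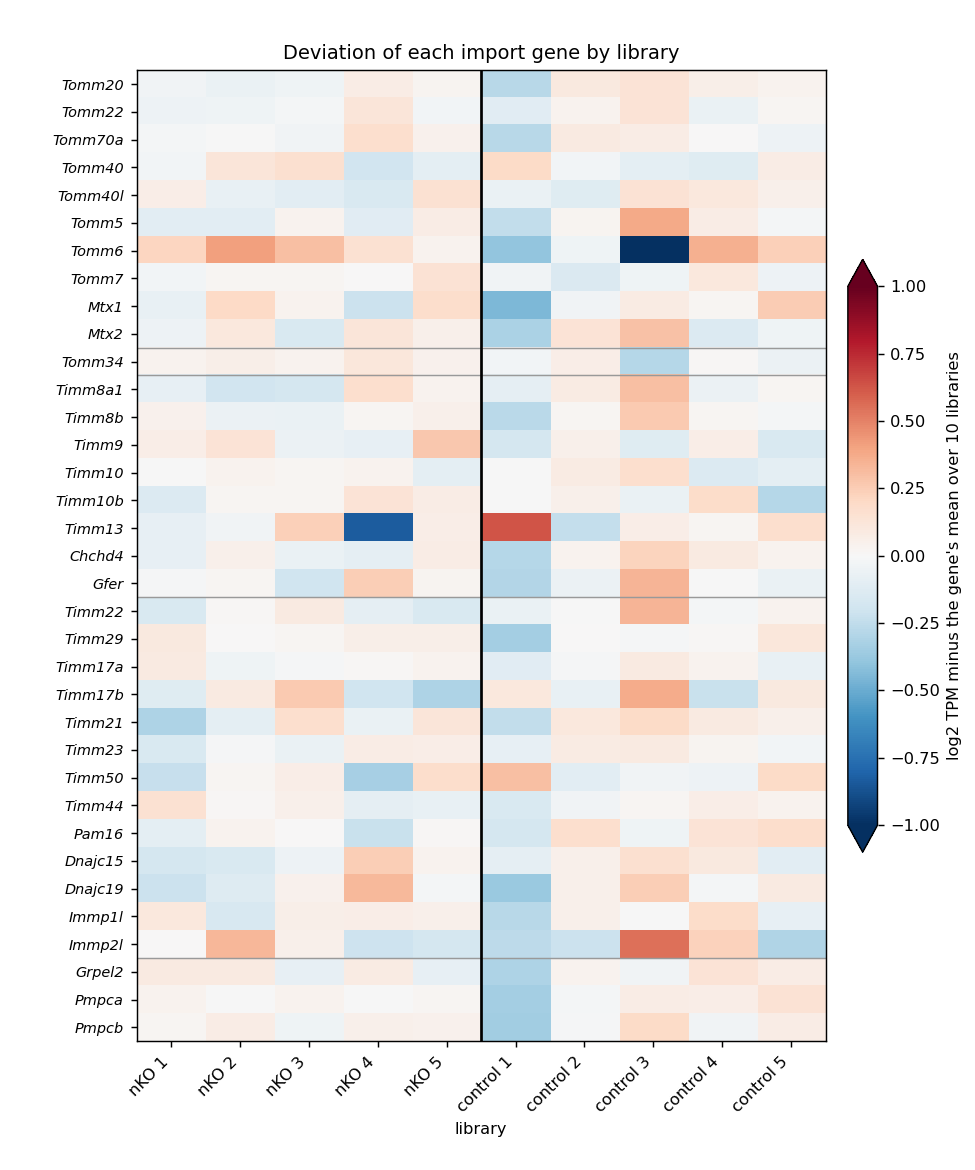
Log2 TPM of each import gene in each library minus that gene's mean over the 10 libraries, with nKO libraries left of the black line; colours stop at 1 in either direction. Control 1 is low and control 3 high for many genes, Tomm6 is lowest in control 3, and Timm13 is lowest in nKO 4 and highest in control 1.

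The gap between nKO 4 and control 1 followed the base composition of the transcripts. Across the 35 import genes, the GC content of the main transcript ranged from 39.2% for Immp1l to 61.7% for Mtx1. Its Spearman correlation with the log2 CPM ratio of nKO 4 over control 1 was -0.785, and -0.778 across the 13910 tested genes with a GC value; these are descriptions across genes, which share the 2 libraries. In TPM the correlation was -0.432 across the import genes and -0.439 across all genes. The effective lengths that enter the authors' TPM also differed: that of Tomm40 was 615 bases in nKO 4 and 1206 bases in control 1, and that of Timm13 was 556 bases in nKO 4 and 1011 bases in control 1.

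Across the import genes, GC content had a Spearman correlation of -0.451 with the log2 fold change of all nKO over all control libraries, and of -0.264 across all genes. In the quartile of tested genes with the highest GC content the median log2 fold change was -0.09; 6 import genes belong to it. The role of base composition in the fold changes of single import genes was not tested. Tomm40, lowest in nKO 4 and highest in control 1 by CPM, was bound to rise with both left out, and stood at 0.14 (SE 0.11). With both libraries left out, 25 of 35 import genes had a log2 fold change below 0. In that fit Tomm20 was at -0.15 (SE 0.06), with an unadjusted p of 0.0353 and an adjusted p of 0.528 by edgeR. Of all tested genes, 9.12% had an unadjusted p under 0.05 there. By CPM, nKO 4 was the highest nKO library of Tomm20 and control 1 its lowest control. Leaving both out was therefore bound to lower its value, and the p rests on that choice.

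**Figure D4:**
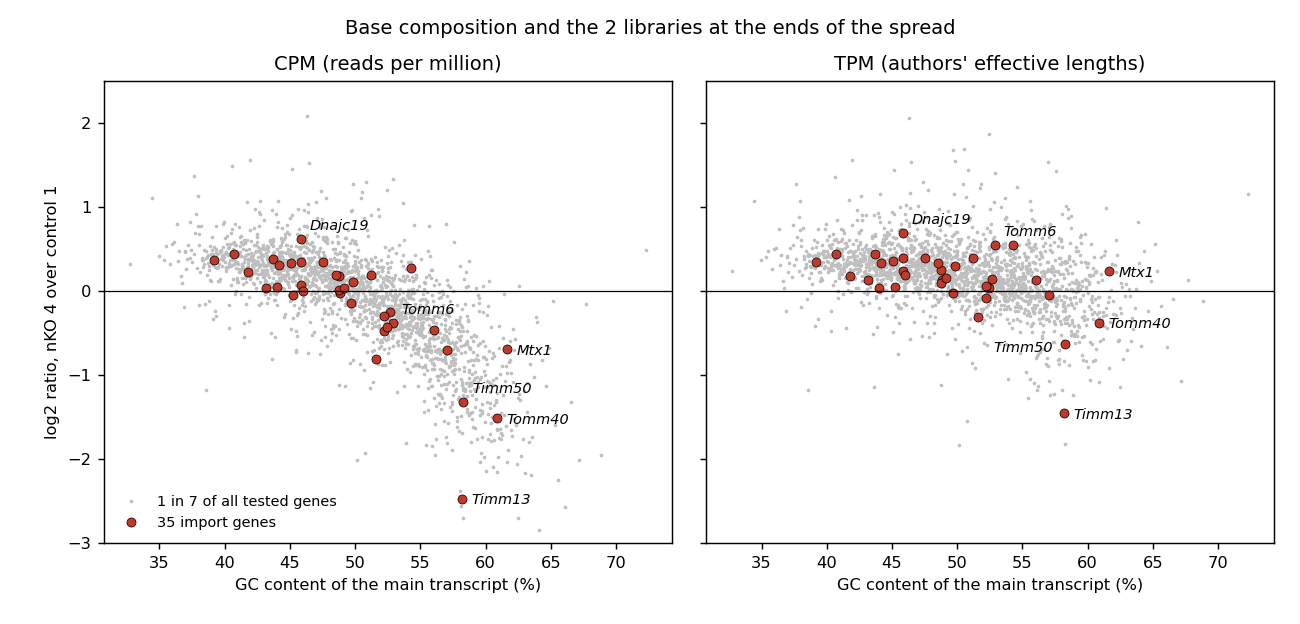
Log2 ratio of nKO 4 over control 1 against the GC content of the main transcript, in CPM (left) and TPM (right), for the 35 import genes (red) and 1 in 7 of all tested genes (grey). In CPM the ratio falls with GC content, with Timm13, Tomm40 and Timm50 lowest among the import genes; in TPM the slope is smaller and Timm13 is still lowest.

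Where the machinery has related or partner subunits, their balance was compared within each library as a log2 ratio of TPM. None of the 8 pairs was called different between nKO and control, with exact two-sided permutation p-values over the 10 libraries from 0.206 to 0.881 and an adjusted p of 0.881 for every pair; the smallest p that 5 against 5 allows is 0.00794. Timm17a exceeded Timm17b 11.6-fold in nKO and 10.5-fold in controls, a difference of 0.14 in log2 units with SDs of 0.26 in nKO and 0.23 in controls. Tomm40 exceeded Tomm40l 1.67-fold in nKO and 1.62-fold in controls. Timm8a1 was at 0.0914 of the level of Timm8b in nKO and 0.0977 in controls, the pair with the smallest p; 3 of the 5 nKO libraries lay below all controls.

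The metaxins Mtx1 and Mtx2 had a ratio of 0.519 in nKO and 0.511 in controls. For the J-domain proteins Dnajc15 and Dnajc19 it was 1.53 in nKO and 1.58 in controls, and for Timm10 and Timm10b 1.19 in nKO and 1.24 in controls. The presequence peptidase subunits, which act as a pair of one each, stood at 0.907 in nKO and 0.922 in controls. Immp1l exceeded Immp2l 6.62-fold in nKO and 6.39-fold in controls. By group means each pair had the same order in both genotypes; in control 4 alone, Timm10 lay below Timm10b, at 73.7 against 75.9 TPM. The group means were far apart for Timm17, Timm8 and Immp and nearly equal for Pmpca and Pmpcb.

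**Figure D5:**
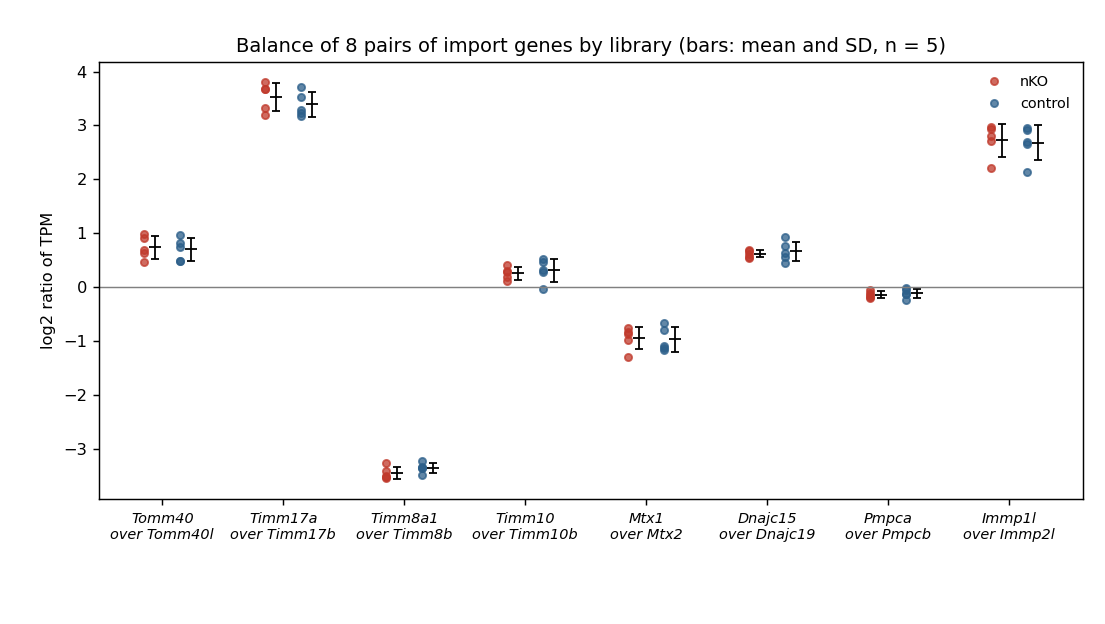
Log2 ratio of TPM of 8 pairs of import genes in each library, nKO left and control right within each pair; bars show the mean and SD (n = 5). The groups overlap for every pair, and the ratios of Timm17a over Timm17b (11.6-fold in nKO, 10.5-fold in controls) and Timm8a1 over Timm8b lie farthest from equal levels.

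At the transcript level, 12 of the 35 genes have more than 1 transcript entry. Among them is Timm8a1, whose entries are 1 transcript placed at more than 1 locus. Of the 12 genes, 8 could be tested for a shift in use. None passed 5% (edgeR's diffSpliceDGE, Simes), beside 0.021% of 4763 genes tested, and none had an unadjusted p under 0.05, beside 0.693%. That last share is far below 5%, so the test was strict here and a lack of calls says little about transcript use. The main transcript held 86.7 ± 22.3% of Tomm40 in nKO and 86.6 ± 15.6% in controls, and 78.4 ± 3.50% of Timm9 in nKO and 78.2 ± 2.63% in controls (SD, n = 5 each). Timm10b was spread over many transcripts. The transcript with the largest mean share in nKO held 27.4 ± 6.73% in nKO and 23.6 ± 15.2% in controls (SD, n = 5 each). A different transcript had the largest mean share in controls, with 18.8 ± 12.2% in nKO and 24.8 ± 10.1% in controls (SD, n = 5 each). Tomm34 divided between 2 transcripts, with the larger share at 71.1 ± 17.2% in nKO and 78.0 ± 23.4% in controls (SD, n = 5 each). The uncertainty of assigning reads to similar transcripts was not part of this test.

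Genes for mitochondrial proteins are often controlled by NRF1 and by ETS-family factors such as GABP, and human TOMM20 is a known target of GABP. Promoter windows of 300 bases around the start were available for 31 of the 35 genes (RefSeq, GRCm38.p6), and both strands were searched for 1 spelling of each motif. The NRF1 spelling, GCGCA and GCGC with any 1 base between them, was present in 4 (12.9%), and in 10.8% of 11196 tested genes with a promoter. The ETS spelling ACCGGAAG was present in 3 (9.68%), and in 4.84% of those tested genes. The following windows show each match in capitals with 10 bases on either side, read 5′ to 3′ on the strand of the gene, since these letters place receptors, a small Tim, the relay and the motor side by side.
Tomm20, NRF1, chr8:126945922-126945951, minus strand: gggtccatctGCGCGTGCGCaccaggcgtt
Timm8b, NRF1, chr9:50603909-50603938, plus strand: cgctgccaccGCGCGTGCGCaccccagcga
Chchd4, NRF1, chr6:91473600-91473629, minus strand: tttcactggtGCGCGTGCGCgctgcaagat
Pam16, NRF1, chr16:4624942-4624971, minus strand: tcgcgtccttGCGCACGCGCtctccggtct
Tomm22, ETS, chr15:79670863-79670890, plus strand: ctctcttccgCTTCCGGTgtcctacagc
Tomm70a, ETS, chr16:57121696-57121723, plus strand: atgccccgggCTTCCGGTgacctctggc
Timm8b, ETS, chr9:50603878-50603905, plus strand: tgaagcgtgaACCGGAAGgcaggagacg

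Timm8b, the most abundant import transcript, held both spellings, which do not overlap. The log2 fold changes of the 4 genes with the NRF1 spelling were -0.04 for Tomm20, -0.05 for Timm8b, -0.09 for Chchd4 and -0.20 for Pam16. Those of the genes with the ETS spelling were -0.04 for Tomm22, 0.03 for Tomm70a and -0.05 for Timm8b. A match describes these letters only, and binding of either factor was not measured here.

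Of 21 further genes that work with the import machinery, 19 were tested; Timm8a2 and Tomm20l did not pass the count filter. Of these, 10 had a log2 fold change below 0 and 9 above 0, with a median of -0.02, none was called, and 2 had an unadjusted p under 0.05, beside 5.65% of all tested genes. Samm50, the core of the machinery that sorts and assembles outer membrane proteins, stood at 71.6 ± 4.44 CPM in nKO and 80.4 ± 4.57 CPM in controls (SD, n = 5 each; log2 fold change -0.17, SE 0.07, adjusted p = 0.820 by edgeR). Dnaja1, a cytosolic J-domain co-chaperone, stood at 322 ± 44.2 CPM in nKO and 271 ± 40.8 CPM in controls (SD, n = 5 each; log2 fold change 0.25, SE 0.11, adjusted p = 0.820 by edgeR). For both the libraries of the 2 genotypes overlapped. The next in order of p were Romo1, an inner membrane protein, with a log2 fold change of -0.34 (SE 0.22), and Mtch1, an outer membrane relative of the insertase Mtch2, with -0.16 (SE 0.12). Hspa9, the Hsp70 of the motor, was at 257 ± 16.3 TPM in nKO and 246 ± 26.1 TPM in controls (SD, n = 5 each), and was named for its role and not by its p.

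Exons of several import genes overlap those of neighbours on the opposite strand, among them Tomm40l with Nr1i3, Pmpca with Inpp5e, Pam16 with Glis2 and Dnajc19 with Fxr1. The libraries were stranded, but no source used here gives the strand setting of the quantification. If strand was not used, reads in the shared bases cannot be told apart, which matters most where the neighbour is abundant: Fxr1 stood at 98.2 TPM over the 10 libraries and shares 178 exon bases with Dnajc19. Besides Tomm6, exons of Timm10b and Timm23 overlap a gene on the same strand, where strand cannot separate reads. Timm10b shares 376 bases with Gm45799, and Timm23 shares 104 bases with Gm23946.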

How the data were processed

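The authors deposited, for each of the 10 libraries, Salmon tables of genes and of RefSeq transcripts. The values deposited are estimated counts, which need not be whole numbers, along with TPM and effective lengths, per the file headers. Per the submitters' processing notes, bcl2fastq, Salmon, DESeq2 and the build mm10 were used, with no versions; no strand setting is given there. A deposited table of a score for a few genes was not used.

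Libraries were grouped by the genotype label and numbered within each group only to name them. The labels give no batch, and all controls have lower running numbers than all nKO libraries; genotype and order of handling cannot be told apart if the numbers follow handling. Nothing beyond littermates ties animals together. The deposited estimated counts were rounded. Genes passing filterByExpr (minimum count 10, minimum total 15) kept at least 99.9% of the counts of each library. After TMM scaling, which also applies to the CPM values, groups were compared with edgeR 4.0.16 (quasi-likelihood, robust, R 4.3.3), with p-values adjusted by Benjamini-Hochberg across the whole table and called at 5%. The SE was derived from the log2 fold change and its F statistic. A TPM pseudocount of 0.1 was used on log scales. GC content is that of the main transcript. Pair ratios were tested by exact permutation in scipy 1.17.1, with adjustment over the 8 pairs.

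The import genes, pairs and lists were chosen with earlier results of these data known. Values per library are given for the import gene with the smallest p of each role group, the highest and lowest by TPM, and both genes of a pair as a ratio; Tomm20, Tomm6 and Tomm40 were added after their values were seen, as were the remaining means. On simulated counts of 14287 genes, 46 of 99 changes of 1.5-fold and 74 of 95 changes of 2-fold were found by edgeR, beside 5 false calls. Alternatives used DESeq2 1.42.0, limma 3.58.1, sva 3.50.0 (1 surrogate variable), other scalings, filters and effective length offsets, and libraries left out. The labels do not single out nKO 4 and control 1, so leaving them out rests on these same data. Leaving them out was bound to raise the fold change of genes low in nKO 4 and high in control 1 within their groups. Genes with the reverse pattern were bound to fall.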

Additional observations from a re-analysis of the deposited data

Results flagged for a closer look

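Within each genotype, a library was singled out when its distance to the nearest of the other 4 exceeded 0.71 of the whole range. With 70 groups examined on each scale, chance alone singles out about 1 in 20, and 6 groups in TPM and 5 in CPM met the criterion. No cause was tested for any of them.

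Among nKO libraries, nKO 4 had the highest Tomm22 level at 190 TPM and 61.2 CPM, with the other 4 at up to 172 TPM. In nKO 5, Tomm7 was highest at 119 TPM and Timm10 lowest at 75.8 TPM. Immp1l was lowest in nKO 2, at 54.5 TPM.

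Among controls, control 1 had the lowest Tomm20 level, 227 TPM against 282 to 302 TPM in the other 4. It also had the highest Tomm40 at 45.4 CPM and the highest Timm13 at 41.1 CPM. Both genes are rich in GC (60.9% and 58.2%), and in TPM neither was singled out. Control 3 had the highest Timm22 level at 24.1 TPM and 26.1 CPM, and the highest Gfer at 13.4 CPM. Control 3 was also the most deeply sequenced library, at 24161361 counts.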

How the results depend on the processing

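No import gene was called under any of the 22 alternatives run for each gene, and Atad3a was called in all, with log2 fold changes from -1.15 to -0.93. The number of import genes below 0 ranged from 18 to 29. The number of genes called over the whole table was 2 in each alternative except the DESeq2 Wald test, with 5, and the fit without nKO 1, with 3. The median of the import genes was -0.00022 with limma on log2 TPM and 0.0080 with the length trend removed; with that trend removed the inner membrane median was 0.0079 and that of the intermembrane space 0.029.

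Of the 35 import genes, 22 changed sign under at least 1 alternative, Timm13, Timm50, Tomm40 and Tomm6 among them, and 13 kept it. With limma on log2 TPM, Mtx1 came to 0.052, Mtx2 to 0.030, Timm10b to 0.048, Gfer to 0.034, Timm44 to 0.023, Dnajc19 to 0.00012 and Pmpca to 0.030. Without control 1 and nKO 4, Tomm70a came to -0.082, Tomm40 to 0.14, Mtx1 to 0.035, Timm10b to 0.095, Timm13 to 0.10, Timm29 to -0.0055, Timm17a to -0.020, Timm50 to 0.029, Timm44 to 0.0070, Grpel2 to -0.085, Pmpcb to -0.062 and Immp1l to -0.059. Without controls 1 and 3, chosen after seeing the data as was limma on TPM, Mtx2 came to 0.034, Timm10 to 0.014, Timm10b to 0.086, Gfer to 0.044, Timm29 to -0.0089, Timm17b to 0.0028, Grpel2 to -0.074, Immp1l to -0.023 and Immp2l to 0.070. With effective length offsets Timm17a came to -0.022, Grpel2 to -0.018, Pmpcb to -0.0065 and Immp1l to -0.0039. Timm17a was -0.0051 with 1 surrogate variable, -0.0065 with the CPM filter, -0.0055 with the DESeq2 Wald test, -0.0047 with DESeq2 size factors, -0.011 with library size alone and -0.0039 with no filter. Grpel2 was -0.0079 with the surrogate variable, -0.00054 with the CPM filter and -0.0057 with library size alone, and Timm10b was 0.023 with the surrogate variable and 0.00068 with limma-voom. From estimated counts in place of TPM, the differences in log2 ratio were -0.071 for Tomm40 over Tomm40l and -0.10 for Mtx1 over Mtx2. The cause was not tested.

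With 1 library left out at a time, the median of the import genes ranged from -0.064 without nKO 4 to -0.013 without control 3, that of the outer membrane from -0.065 without nKO 4 to -0.011 without control 3, and that of the inner membrane from -0.10 without nKO 4 to -0.031 without nKO 1. The values of genes that changed sign ranged from -0.036 to 0.067 for Tomm70a, -0.31 to 0.034 for Tomm40, -0.0068 to 0.31 for Tomm6, -0.16 to 0.0071 for Mtx1, -0.064 to 0.078 for Mtx2, -0.036 to 0.095 for Tomm34, -0.087 to 0.015 for Timm8b, -0.083 to 0.097 for Timm10b, -0.085 to 0.060 for Gfer, -0.020 to 0.027 for Timm17a, -0.13 to 0.034 for Dnajc19, -0.050 to 0.051 for Grpel2, -0.071 to 0.016 for Pmpca, -0.040 to 0.079 for Pmpcb, -0.018 to 0.086 for Immp1l and -0.17 to 0.091 for Immp2l. The pair differences ranged from -0.025 to 0.11 for Tomm40 over Tomm40l, -0.14 to 0.00067 for Timm10 over Timm10b, -0.029 to 0.11 for Mtx1 over Mtx2, -0.098 to 0.022 for Dnajc15 over Dnajc19 and -0.082 to 0.18 for Immp1l over Immp2l. None of the 8 pairs was called in any alternative.

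No paired analysis was possible because the labels give no shared replicate number, litter or batch. In 5 against 5 simulated libraries, 46 of 99 changes of 1.5-fold were recovered.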
